A study of Mus musculus with 12 samples.

Results

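The genes of 8 neuropeptide precursors were followed in the dissected adrenal medulla of mice: Tac1, Vgf, Npy, Penk, Pdyn, Gal, Adcyap1 and Vip. They are 8 of the 19505 genes on the array that carry a symbol, and they were taken by name, with earlier results of these data known. All 8 symbols were found, each on 1 probe set, so no choice among probe sets was needed. Expression was measured in 12 male C57Bl6 mice with 1 Affymetrix array per animal, and values are deposited log2 intensities. The germ-free insulin group (animals 10 to 12) and the germ-free saline group (animals 7 to 9) carried no gut flora. The colonized insulin group (animals 4 to 6) and the colonized saline group (animals 1 to 3) carried a normal one. Each animal fasted for 3 h, then received an intraperitoneal injection of regular human insulin at 2 IU/kg or the same volume of saline, and the medulla was frozen from animals killed 90 min later. The animals' age and blood glucose are not given in the sources used here. The design asks how the medulla responds to low blood glucose caused by insulin, and how that response differs without a gut flora.

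Chromaffin cells store catecholamines and neuropeptides in the same large dense-core granules and release both when the splanchnic nerve fires. A neuropeptide gene encodes a longer precursor protein, which prohormone convertases cut and other enzymes trim and amidate inside the granule, so that release must be followed by new synthesis. Splanchnic terminals release acetylcholine and PACAP, the product of Adcyap1, and a fall in blood glucose is a strong stimulus to this nerve. Cyclic AMP and calcium signals in the chromaffin cell act in part through the transcription factor CREB, which binds the cyclic AMP response element.

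Promoter sequence is shown for the members in which the core of that element was found, whether or not they changed with insulin. RefSeq promoter windows of build GRCm38.p6, from 250 bases before to 50 bases after an annotated start, were available for 6 of the 8 members (8 windows of 300 bases). Vgf and Penk had none in the table used here and were not searched. The core TGACG, read on both strands, occurred 2 times in the Tac1 window, at positions -197 and -43 from the start. It occurred once in the windows of Gal (position 20, inside the transcribed part), Adcyap1 (position -91, the same site being in both of its windows) and Vip (position -79), and not in those of Npy and Pdyn. Of 32851 mouse promoter windows of the same length, 20.8% held this core. The full element TGACGTCA (1.79% of windows), which contains the core, the AP-1 site TGANTCA (7.81%) and the EGR site GCGNGGGCG (5.55%) had no match in the 8 windows. Each sequence runs 5′ to 3′ on the gene's strand, and the capitals mark the core, which reads CGTCA where it lies on the opposite strand. The 250 bases before the Tac1 start are given first because this gene had the largest insulin effect of the 8.
Tac1, chr6:7554811-7555060, plus strand: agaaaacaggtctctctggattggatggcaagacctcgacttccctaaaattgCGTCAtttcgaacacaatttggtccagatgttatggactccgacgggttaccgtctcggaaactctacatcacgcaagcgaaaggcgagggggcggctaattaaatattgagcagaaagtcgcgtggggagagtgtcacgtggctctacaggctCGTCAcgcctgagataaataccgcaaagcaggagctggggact
Gal, chr19:3414509-3414537, minus strand: gcgctgagccggTGACGcggcagctccca
Adcyap1, chr17:93198914-93198942, plus strand: ggactaggatgcTGACGtcttttactgat
Vip, chr10:5639127-5639155, plus strand: ggatcactactgTGACGtctttcggggag
A match to these letters is a description of the sequence and not a measured binding site.

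**Figure D1:**
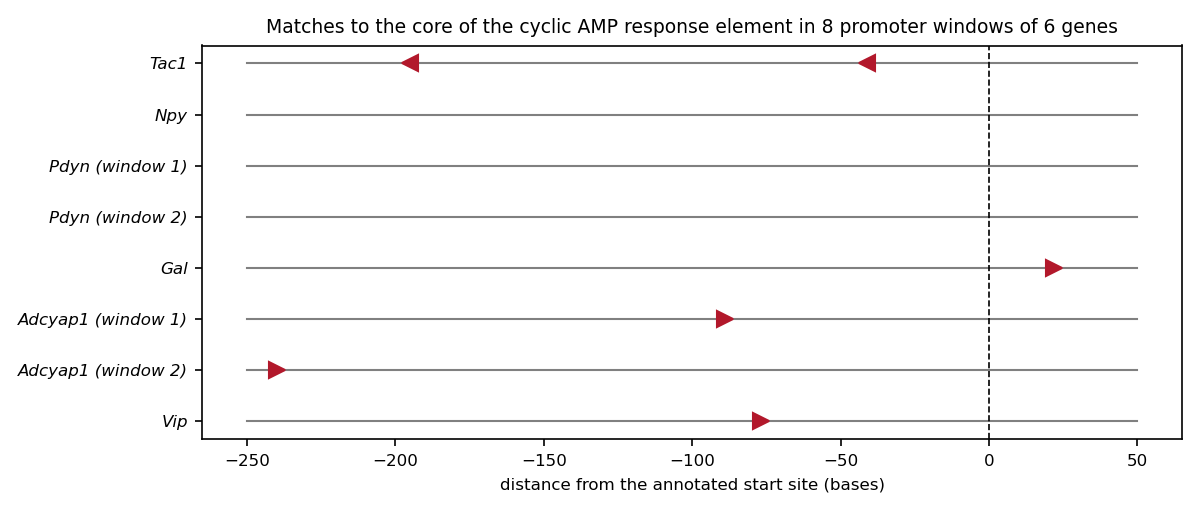
Matches to the core TGACG in the 8 available promoter windows of 6 precursor genes, plotted by distance from the annotated start site in bases (dashed line), with the triangle pointing right for a match on the gene's strand and left for one on the opposite strand. Tac1 has 2 matches, both on the opposite strand, and the Npy and Pdyn windows have none.

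The arrays carried the markers of the labelled tissue and of other tissues. Chromaffin markers (12 genes, including the catecholamine synthesis genes Th, Dbh and Pnmt) averaged 9.88 ± 0.25 in germ-free insulin animals, 10.48 ± 0.06 in germ-free saline animals, 10.97 ± 0.26 in colonized insulin animals and 10.72 ± 0.28 in colonized saline animals (SD, n = 3 each). Adrenal cortex markers were also bright, with group means of 12.44 to 12.73. Adipocyte markers averaged 10.36 ± 0.22 in germ-free insulin, 9.25 ± 0.38 in germ-free saline, 6.88 ± 1.32 in colonized insulin and 8.59 ± 2.13 in colonized saline animals. Intestinal epithelium markers (10 genes) averaged 8.72 ± 0.97 in germ-free saline animals and 5.22 to 5.38 in the other 3 groups, and all 10 were lower in germ-free insulin than in germ-free saline animals, 8 of them called (median -3.73). Hepatocyte markers averaged 8.69 ± 0.89 in germ-free insulin, 9.83 ± 0.76 in germ-free saline, 6.61 ± 0.29 in colonized insulin and 8.66 ± 2.62 in colonized saline animals. Pituitary markers (7 genes) averaged 7.28 ± 0.47 in germ-free insulin animals and 5.19 to 5.51 in the other 3 groups. All 7 were higher in germ-free insulin than in germ-free saline animals, 4 of them called (median 1.66). Each insulin comparison in germ-free mice and each comparison after saline rests on the germ-free saline group. The insulin comparisons in germ-free mice and the comparisons after insulin rest on the germ-free insulin group. The part of these tissues in the members' values was not tested. The median of the 5222 negative control probe sets lay between 5.30 and 5.54 on the germ-free arrays and between 4.70 and 4.83 on the colonized arrays, so colonization state and this difference in array background cannot be told apart for dim probe sets. Every comparison between germ-free and colonized animals below carries that limit.

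Insulin raised Tac1 and Vgf, and Gal was higher in every insulin-treated animal than in the saline-treated animals of the same colonization state. Among the 8 precursors, 2 were called in colonized mice (Tac1 and Vgf, both higher), at a limma adjusted p under 0.05 over 19572 probe sets, of which 0.153% were called. In germ-free mice 1 was called (Tac1, higher), where 0.439% of all probe sets were. For the mean of both insulin effects 2 were called (Tac1 and Vgf), against 0.419% of all probe sets. No member was called lower with insulin in any of these tests, though 2 of the 8 values were below 0 in colonized mice, 3 in germ-free mice and 3 for the mean. The median change of the 8 was 0.32 log2 units in colonized mice and 0.03 in germ-free mice, beside 0.00 and 0.01 over all probe sets. Npy, Penk, Pdyn, Adcyap1 and Vip did not pass the test in either state. Because the 8 were chosen with earlier results of these data known, their counts beside those of all probe sets are a description only.

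**Figure D2:**
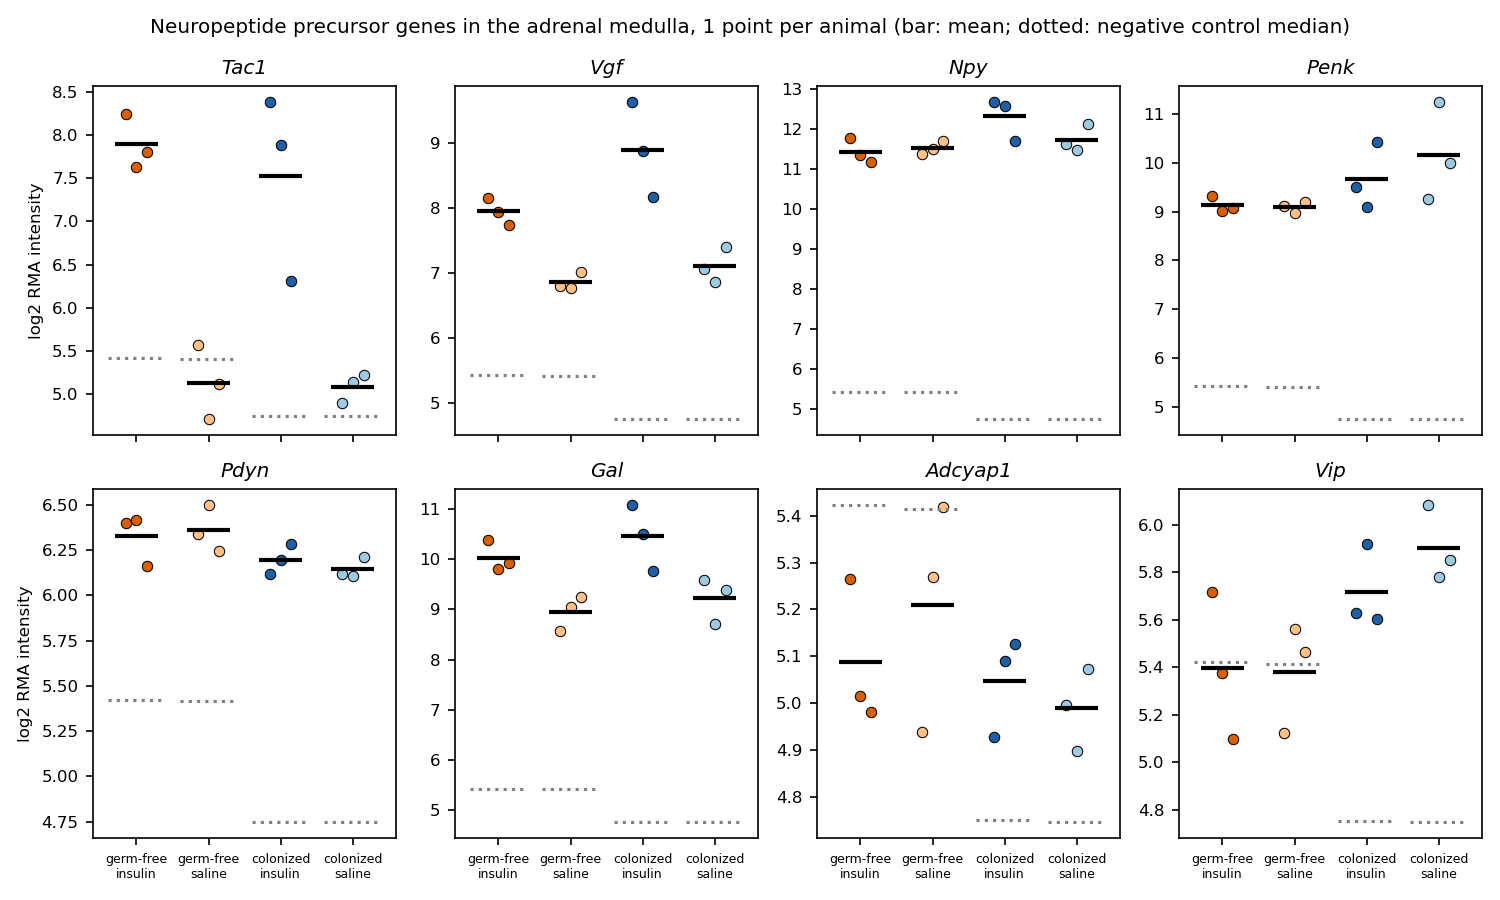
Log2 RMA intensity of the 8 precursor genes, 1 point per animal, for germ-free insulin, germ-free saline, colonized insulin and colonized saline mice; bars are group means of 3 animals and dotted lines the median of the negative control probe sets in each group. The insulin points of Tac1, Vgf and Gal all lie above the saline points of the same colonization state, and the colonized insulin animals spread widely.

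Tac1 encodes the precursor of substance P and neurokinin A, tachykinins that act on the receptors of the Tacr family. Its log2 values were 8.24, 7.62 and 7.80 in the germ-free insulin animals, against 5.57, 4.71 and 5.12 in the germ-free saline animals. They were 8.38, 7.88 and 6.31 in the colonized insulin animals, against 4.90, 5.15 and 5.22 in the colonized saline animals. All 6 insulin-treated animals lay above all 6 saline-treated animals. The rise was 2.75 ± 0.41 log2 units in germ-free mice (6.75-fold, SE from limma, adjusted p = 0.0122) and 2.43 ± 0.41 in colonized mice (5.40-fold, adjusted p = 0.0463). Over both states the mean rise was 2.59 ± 0.29 (adjusted p = 0.00311), the second largest rise on the array and the 7th smallest p.

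After saline Tac1 was near background. Between 32.5% and 52.9% of the negative controls were dimmer than its probe set on the germ-free saline arrays and between 55.4% and 63.1% on the colonized saline arrays. After insulin 89.7% to 94.9% were dimmer on the germ-free arrays and 85.8% to 97.7% on the colonized arrays. With saline values this close to background the fold may understate the change. The call in colonized mice lay close to the threshold and was lost in 11 of the 12 fits that left out 1 animal. The rise itself ran from 2.01 to 3.04 in these fits and stayed at 2.43 without any one germ-free animal. Germ-free animals enter this comparison only through the shared estimate of the spread and the adjustment over all probe sets. Without colonized insulin animal 6, whose Tac1 was the lowest of the 6 insulin values, the rise was 3.04 with an adjusted p of 0.00112, and without any one of the other 11 animals the adjusted p was 0.0701 to 0.233. The call in germ-free mice was lost without animal 9, 10 or 12 (adjusted p = 0.0713, 0.0609 and 0.0667) and stayed without any one of the other 9. The mean rise over both states stayed called when any one of the 12 animals was left out.

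Vgf encodes a secretory granule protein that is cut into several bioactive peptides and whose gene responds to growth factors and to depolarization. Its log2 values were 8.15, 7.94 and 7.74 in the germ-free insulin animals, against 6.80, 6.77 and 7.01 in the germ-free saline animals. They were 9.63, 8.87 and 8.17 in the colonized insulin animals, against 7.06, 6.85 and 7.39 in the colonized saline animals. The insulin and saline groups did not overlap in either state. On the germ-free saline arrays 78.2% to 83.4% of the negative controls were dimmer than its probe set, and on the colonized saline arrays 92.3% to 94.6%. Insulin raised it by 1.79 ± 0.28 in colonized mice (3.46-fold, adjusted p = 0.0429), and the change of 1.08 ± 0.28 in germ-free mice did not pass the test (adjusted p = 0.183). The mean rise was 1.44 ± 0.20 (adjusted p = 0.0101), and it stayed called when any one of the 12 animals was left out. The call in colonized mice remained in 2 of the 12 fits that left out 1 animal, with adjusted p from 0.00317 (without colonized insulin animal 6) and 0.0392 (without colonized saline animal 3) to 0.184.

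Gal encodes the precursor of galanin, a peptide that acts on the Galr receptors and often inhibits the cells it reaches. Its log2 values were 10.38, 9.80 and 9.92 in the germ-free insulin animals, against 8.57, 9.04 and 9.24 in the germ-free saline animals. They were 11.08, 10.52 and 9.78 in the colonized insulin animals, against 9.58, 8.70 and 9.40 in the colonized saline animals. The groups did not overlap within either state. The difference was 1.08 ± 0.32 in germ-free mice (adjusted p = 0.256) and 1.23 ± 0.32 in colonized mice (adjusted p = 0.188). The mean difference of 1.16 ± 0.22 had an adjusted p of 0.0544, just short of the threshold. Leaving out 1 animal gave adjusted p from 0.0155 (without colonized insulin animal 6) and 0.0495 (without colonized saline animal 1) to 0.149, with only these 2 fits under the threshold. The adjusted p was 0.102 with the trend and robust options and 0.0822 with a floor at the negative control median. It was 0.012 with array weights, 0.00728 with the adipocyte marker mean as a covariate and 0.00083 with the chromaffin marker mean as one, where the mean difference was 1.47 and that in colonized mice 0.80.

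Tac1, Vgf and Gal were the 3 members whose insulin and saline animals did not overlap, all higher, in germ-free mice, where 9.55% of all probe sets were apart in that direction and 10.1% in the other. The same 3 of 8 were apart and higher in colonized mice, where 7.53% of all probe sets were higher and 6.55% lower without overlap. No member was apart and lower with insulin in either state.

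**Figure D3:**
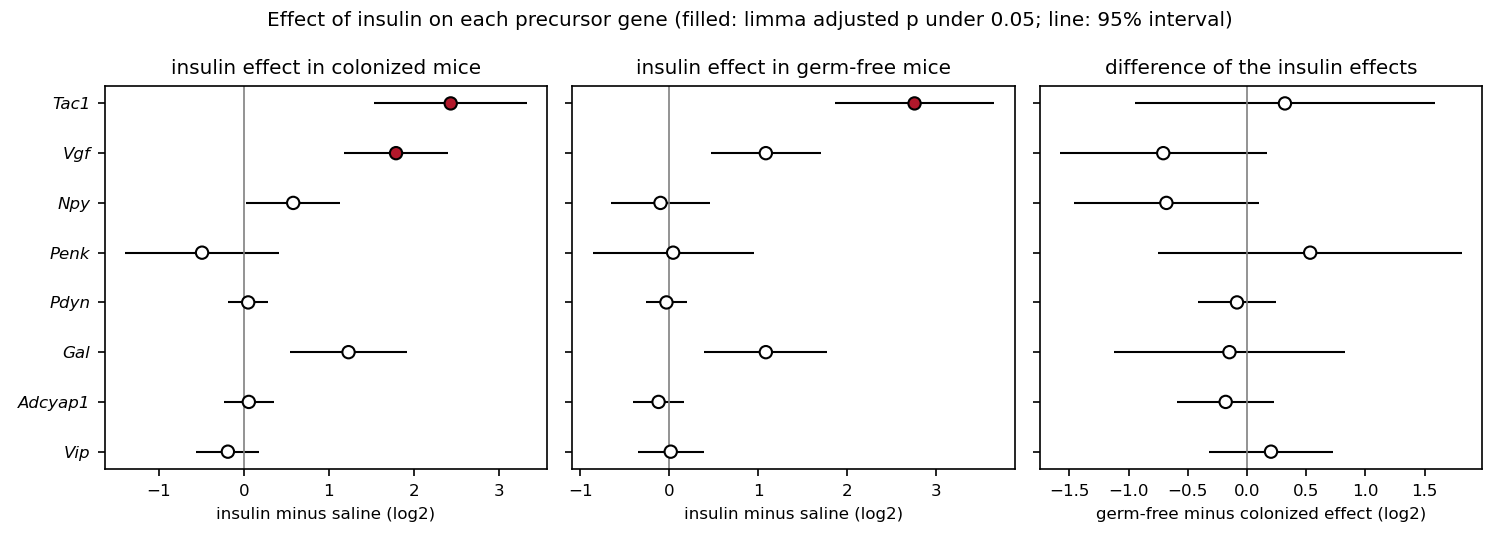
Insulin minus saline on the log2 scale for each precursor gene in colonized mice and in germ-free mice, and the germ-free minus the colonized effect; lines are 95% intervals from limma and filled points have an adjusted p under 0.05. Tac1 is filled in both states and Vgf in colonized mice, and no point is filled in the panel of differences.

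The insulin effects were then compared between the colonization states. The difference of the insulin effects, germ-free minus colonized, was called for 0 of the 8 members by limma, where 0.0358% of all probe sets were called. None of the 8 had an unadjusted p under 0.05 either, where 1951 of 19572 probe sets did. For Tac1 it was 0.32 ± 0.58 log2 units with a 95% interval of -0.95 to 1.59. For Vgf it was -0.71 ± 0.40 (-1.58 to 0.17, adjusted p = 0.59) and for Gal -0.15 ± 0.45 (-1.12 to 0.83, adjusted p = 0.943). These intervals hold 0 and also hold differences of over 1 log2 unit in one direction or both, so the data neither separate the states nor show that they respond alike. That Vgf passed the test in colonized mice only is therefore not a tested difference.

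Npy encodes neuropeptide Y, a sympathetic co-transmitter that chromaffin cells release with catecholamines. Its log2 values were 11.77, 11.34 and 11.16 in the germ-free insulin animals, against 11.36, 11.50 and 11.70 in the germ-free saline animals. They were 12.67, 12.56 and 11.70 in the colonized insulin animals, against 11.61, 11.46 and 12.11 in the colonized saline animals. Insulin and saline values overlapped in both states. The insulin difference was -0.10 ± 0.25 in germ-free mice (adjusted p = 0.981) and 0.58 ± 0.25 in colonized mice (adjusted p = 0.401). After insulin, germ-free minus colonized was -0.88 ± 0.25 and missed the threshold (adjusted p = 0.0539). With the chromaffin marker mean as a covariate that value was 0.40 (adjusted p = 0.75), in a fit that called only 1 of 19572 probe sets.

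Penk and Pdyn encode the opioid precursors, proenkephalin for the enkephalins and prodynorphin for the dynorphins. Penk read 9.32, 9.01 and 9.07 in the germ-free insulin animals, against 9.12, 8.96 and 9.19 in the germ-free saline animals. It read 9.50, 9.10 and 10.42 in the colonized insulin animals, against 9.26, 11.25 and 9.99 in the colonized saline animals. The 6 germ-free animals lay close together, between 8.96 and 9.32, while the colonized ones spread from 9.10 to 11.25. After saline, every germ-free animal was below every colonized animal, but the difference of -1.07 ± 0.42 did not pass the test (adjusted p = 0.141). Colonized saline animal 2, with the highest Penk value, also had the highest adipocyte marker mean of the colonized animals, 10.29, and the highest hepatocyte (11.42), Schwann (7.42) and neuron (6.65) marker means of all 12. The germ-free insulin animals had adipocyte means of 10.19 to 10.61 with Penk at 9.01 to 9.32. The part of other tissue in the Penk value of animal 2 was not tested. Insulin minus saline for Penk was 0.04 ± 0.42 in germ-free and -0.49 ± 0.42 in colonized mice. Pdyn was dim and varied little, from 6.16 to 6.50 over the germ-free animals and from 6.11 to 6.28 over the colonized animals, and its insulin difference was -0.03 ± 0.11 in germ-free and 0.05 ± 0.11 in colonized mice.

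Adcyap1 encodes PACAP, which in the adrenal is known chiefly as a transmitter of the splanchnic nerve, whose cell bodies lie in the spinal cord. Its probe set stayed near background, with 36.7% to 60.4% of the negative controls dimmer than it over the 12 arrays. Its values ran from 4.94 to 5.42 in germ-free and from 4.90 to 5.13 in colonized animals, and the insulin difference was -0.12 ± 0.13 in germ-free and 0.06 ± 0.13 in colonized mice. Vip encodes vasoactive intestinal peptide, a relative of PACAP that shares the Vipr receptors with it. Vip read 5.72, 5.37 and 5.10 in the germ-free insulin animals, against 5.12, 5.56 and 5.46 in the germ-free saline animals. It read 5.63, 5.92 and 5.60 in the colonized insulin animals, against 6.08, 5.78 and 5.85 in the colonized saline animals. After saline the germ-free animals were all below the colonized ones, with a difference of -0.52 ± 0.17 that did not pass the test (adjusted p = 0.0875).

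No precursor of the 8 was called between germ-free and colonized mice by limma, either after saline, where 6.9% of all probe sets were called, or after insulin, where 7.77% were. At an unadjusted p under 0.05 there were 2 of 8 in each comparison, near the share of all probe sets, 4702 of 19572 after saline and 4396 after insulin. After saline 1 member was apart and higher (Pdyn, 0.22 ± 0.11, adjusted p = 0.251) and 2 were apart and lower (Penk and Vip), against 11% and 16.4% of all probe sets. After insulin 0 were apart and higher and 1 was apart and lower (Vgf), against 12% and 19.8%. The Vgf value was -0.95 ± 0.28 (adjusted p = 0.062). The median of the 8 was -0.22 after saline and -0.37 after insulin, beside -0.04 and -0.03 over all probe sets.

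Chromaffin markers moved beside these values. In germ-free mice all 12 were lower after insulin than after saline, 2 of them called (Phox2a and Hand2), and after insulin all 12 were lower in germ-free than in colonized mice, 10 of them called. In bulk tissue, fewer chromaffin cells and less RNA per cell cannot be told apart. Tac1 minus the chromaffin mean of the same array was -1.90, -2.24 and -1.83 in the germ-free insulin animals, against -4.86, -5.75 and -5.42 in the germ-free saline animals. It was -2.83, -3.12 and -4.38 in the colonized insulin animals, against -6.08, -5.28 and -5.53 in the colonized saline animals. With the marker mean as a covariate, the mean insulin effect was 2.84 for Tac1 (adjusted p = 0.00119) and 1.67 for Vgf (adjusted p = 0.000968). Within each state the calls were lost with this covariate, with 3.58 for Tac1 in germ-free mice (adjusted p = 0.0537), 2.09 for Tac1 in colonized mice (adjusted p = 0.144) and 1.46 for Vgf in colonized mice (adjusted p = 0.0624). Calls over all probe sets fell as well, to 0.0307% in germ-free and 0.0409% in colonized mice, from 0.439% and 0.153% without the covariate. The member called in germ-free mice was then Gal, with 2.14 (adjusted p = 0.0297). The marker means of the germ-free insulin arrays, 9.64 to 10.14, lay below those of all other arrays, 10.43 and higher. Covariate values that involve this group are therefore extrapolated.

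Colonized insulin animal 6 had the lowest chromaffin mean of its group, 10.69 against 11.21 and 11.00 in the other animals, and was also the lowest of its group for Tac1, Vgf, Gal and Npy. The same animal had the highest adipocyte marker mean of its group, 8.37 against 5.85 and 6.42, and the highest Penk value of its group. After group means were removed, the correlation with the chromaffin mean over the 12 arrays was 0.88 for Gal, 0.75 for Vgf, 0.75 for Npy and 0.53 for Tac1, and it was -0.67 for Penk. The Penk value rests mainly on the colonized animals, since Penk varied little among the germ-free ones. These are descriptions over arrays that share their normalization, and the part of tissue make-up in each result was not tested further.

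**Figure D4:**
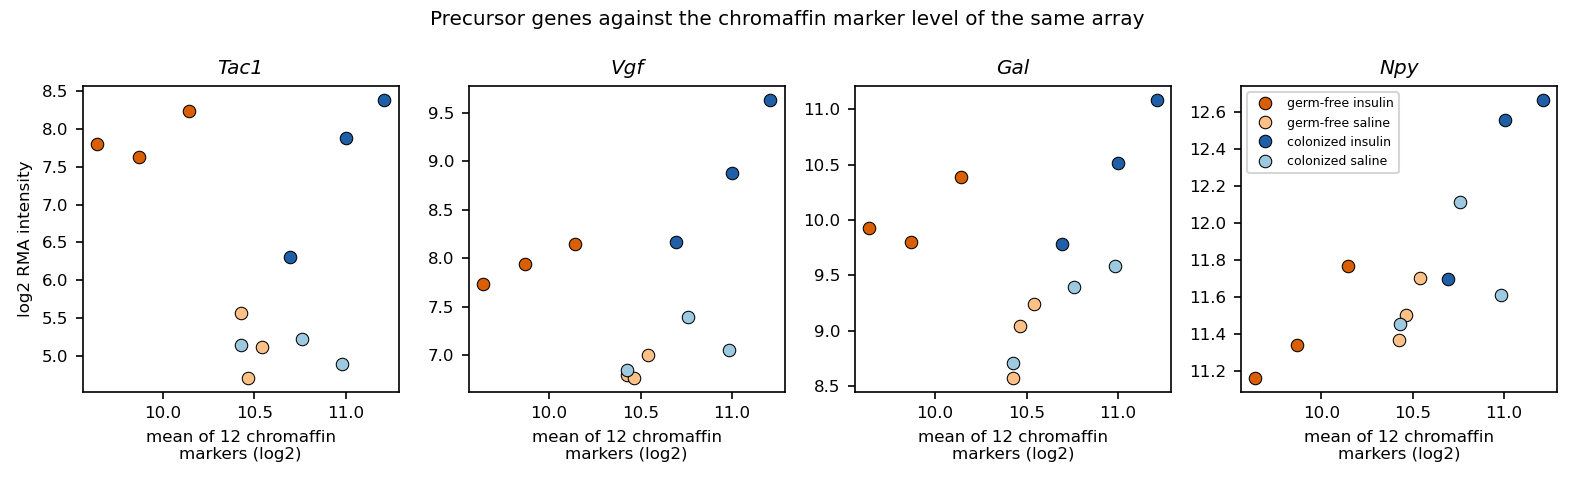
Log2 intensity of Tac1, Vgf, Gal and Npy (vertical) against the mean log2 level of 12 chromaffin markers on the same array (horizontal), 1 point per animal. The germ-free insulin points lie at the lowest marker levels, 9.64 to 10.14, and are still above all saline points for Tac1, Vgf and Gal, whereas the lowest 2 Npy values lie there.

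The members varied together to different degrees. Over the 12 arrays, Vgf and Gal correlated at r = 0.94 (0.84 after group means were removed), Tac1 and Vgf at 0.85 (0.82), and Tac1 and Gal at 0.84 (0.58). Vgf and Npy correlated at 0.73 (0.89). Penk ran opposite to Gal after group means were removed (-0.64). This value rests mainly on the colonized animals, where the SD of Penk was 1.01 after saline and 0.67 after insulin. In germ-free animals it was 0.12 and 0.16. The genes most like each member were sought among those whose mean lay above the 95th percentile of the negative controls, 6950 or 6951 per member. The profile of Tac1 was most like that of Tmcc3 (r = 0.98), Gclc (0.96), the catalytic subunit of the enzyme that begins glutathione synthesis, and Mest (0.95). Vgf was most like Pak3 (0.97), Gpr19 (0.96) and Ccne1 (0.94), and Gal was most like Gpr19 (0.97), Gclc (0.93) and Pak3 (0.91). Tac1 and Gal thus shared Gclc, and Vgf and Gal shared Gpr19 and Pak3, among their 3 most similar genes. These r values include the insulin difference, which genes that respond to insulin share. After group means were removed, r with the 3 genes was 0.78 to 0.87 for Tac1, 0.72 to 0.95 for Vgf and 0.82 to 0.90 for Gal. Npy was most like Ptprn (0.95), a dense-core granule membrane protein, Ccl27a (0.95) and Tmed3 (0.94). Penk was most like Igfbp3 (0.97), Gas6 (0.96) and Nid1 (0.95), the last a basement membrane protein. The highest values were lower for the dim members, at 0.85 for Pdyn with Ninl and 0.87 for Adcyap1 with Tmbim1, while Vip reached 0.94 with Hyi.

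Of 42 other neuropeptide precursors, 1 rose and 1 fell in germ-free mice with insulin, where 0.439% of all probe sets were called, and 1 rose and 1 fell in colonized mice, where 0.153% were. Adm, which encodes the vasodilator peptide adrenomedullin, fell in both, by 1.90 ± 0.21 in germ-free mice (adjusted p = 0.0023) and by 1.31 ± 0.21 in colonized mice (adjusted p = 0.0435). Pomc, the precursor of ACTH and of beta-endorphin, rose by 1.66 ± 0.21 in germ-free mice (adjusted p = 0.00563). It averaged 6.60 in germ-free insulin, 4.94 in germ-free saline, 5.15 in colonized insulin and 5.13 in colonized saline animals. The mean of 7 pituitary markers, Pomc among them, was higher in the same group, at 7.28 ± 0.47 in germ-free insulin animals, 5.51 ± 0.22 in germ-free saline animals, 5.30 ± 0.14 in colonized insulin animals and 5.19 ± 0.05 in colonized saline animals. The part of pituitary transcripts in the Pomc value was not tested. Nppb, which encodes B-type natriuretic peptide, rose by 0.98 ± 0.13 in colonized mice (adjusted p = 0.0224), although its group means of 4.46 to 5.45 stayed dim. The Adm and Pomc calls in germ-free mice held when any one animal was left out. The Adm call in colonized mice held only in the fits without animal 1, 2 or 6 (adjusted p up to 0.195 in the others), and the Nppb call was lost without animal 5, 7, 8, 9 or 11 (up to 0.114). The list's median was 0.04 in germ-free and 0.15 in colonized mice.

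Between the colonization states, 3 of these 42 were called higher and 1 called lower in germ-free mice after saline, where 6.9% of all probe sets were called, so this count lies near that of all probe sets. The 3 were Gnrh1 (0.89 ± 0.18), Cck (0.77 ± 0.21) and Npvf (0.76 ± 0.17), and Adm was lower (-0.96 ± 0.21). All group means of these 3 genes lay under the 95th percentile of the negative controls, so the array background limit holds for them. Cck was the brightest of them, at 7.38 in germ-free and 6.61 in colonized saline animals. The Npvf means of 4.44 in germ-free and 3.69 in colonized saline animals lay below the negative control medians of their arrays. After insulin, where 7.77% of all probe sets were called, 3 were called higher, with Pomc (1.45 ± 0.21) and Gnrh1 (0.79 ± 0.18) the larger changes, and 2 were called lower, Adm (-1.56 ± 0.21) and Nppb (-0.88 ± 0.13). With values below each array's negative control median set to that median, the Nppb difference was -0.03. The calls after saline were lost for Adm without animal 1, 7 or 8, for Gnrh1 without 7 or 9, for Npvf without 1, 8 or 9, and for Cck without any one animal but 3, 5 or 6 (adjusted p up to 0.149). After insulin the calls of Adm, Pomc and Nppb held when any one animal was left out, and that of Gnrh1 was lost without 4, 5, 10, 11 or 12 (up to 0.0745).

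Granins help to build the granule core with which these peptides are stored. The list used here held Chga, Chgb, Scg2, Scg3, Scg5, Pcsk1n and Gnas, not all of which are proteins of that core. None of the 7 was called for insulin in germ-free mice, where all 7 values were below 0 (median -0.50, 4 at an unadjusted p under 0.05), nor in colonized mice, where the median was 0.17 and none had an unadjusted p under 0.05. Such a p was found for 1626 of all 19572 probe sets in germ-free and for 2305 in colonized mice. After insulin all 7 were below 0 for germ-free minus colonized, with a list median of -0.94, and 6 of them were called, where 7.77% of all probe sets were called in either direction. The largest called changes were Scg3 (-1.39 ± 0.23, adjusted p = 0.00583), Pcsk1n, which encodes the convertase inhibitor proSAAS (-1.33 ± 0.24, adjusted p = 0.00786), Scg5 (-0.97 ± 0.23) and Chgb (-0.94 ± 0.14). Chga and Chgb are also on the chromaffin marker list. With that marker mean as a covariate the values were 0.12 for Pcsk1n, 0.57 for Scg5, -0.05 for Scg3 and -0.17 for Chgb. None of these was called, but only 1 of all 19572 probe sets was in that fit. The lost calls therefore do not set these genes apart from the rest of the array. The Scg5 call was lost without animal 4, 5, 11 or 12 (adjusted p up to 0.119), and the other 3 held when any one animal was left out. After saline 1 of the 7 was called, where 6.9% of all probe sets were. It was Pcsk1n, which was lower (8.72 in germ-free and 9.72 in colonized animals, SE of the difference 0.24, adjusted p = 0.0299), a call lost without animal 1, 3, 7, 8 or 9 (up to 0.108).

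Of 14 peptide processing enzymes, 0 were called for insulin by limma in either state, with 1 of the 14 at an unadjusted p under 0.05 in each. Over all 19572 probe sets, 1626 had such a p in germ-free and 2305 in colonized mice. Qpct, which forms the pyroglutamate end of some peptides, gave -0.39 ± 0.15 in germ-free mice, and Ctsl, a cathepsin, gave -0.29 ± 0.10 in colonized mice. Between the states after saline, 1 of the 14 was called higher and 1 lower, where 6.9% of all probe sets were called. Pcsk5, a prohormone convertase relative, was higher in germ-free mice (0.79 ± 0.21, adjusted p = 0.0472) and Ctsl was lower (-0.65 ± 0.10, adjusted p = 0.00515). After insulin 1 of the 14 was called, near the 7.77% of all probe sets. It was Qpct, which was lower (-0.81 ± 0.15, adjusted p = 0.0083). The Ctsl and Qpct calls held when any one animal was left out, and the Pcsk5 call held only in the fits without animal 2 or 3 (up to 0.138 in the others).

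Of 16 receptors for the member peptides, 0 were called for insulin by limma in either state, with 3 at an unadjusted p under 0.05 in each. Of all 19572 probe sets, 1626 had such a p in germ-free and 2305 in colonized mice. Npy2r, a receptor for neuropeptide Y, had the smallest p in germ-free mice (-0.96 ± 0.22, adjusted p = 0.12), and Npy4r, a receptor for pancreatic polypeptide, had it in colonized mice (0.33 ± 0.10, adjusted p = 0.259). The Npy4r means there, 4.56 after insulin and 4.23 after saline, lay below the negative control medians of the same arrays. After insulin 4 of the 16 receptors were called lower in germ-free than in colonized mice and 1 was called higher, while over all 19572 probe sets 1008 were called lower and 513 higher. The largest called changes were Adcyap1r1, the PACAP receptor (-1.59 ± 0.26, adjusted p = 0.00559), Npy2r (-1.06 ± 0.22, adjusted p = 0.0149), Galr1, a galanin receptor (-0.67 ± 0.18, adjusted p = 0.0386), and Oprm1, the mu opioid receptor (-0.66 ± 0.16, adjusted p = 0.0289). The germ-free insulin means of Galr1 (5.26) and Oprm1 (5.02) lay below the negative control medians of their arrays. For these dim genes the calls cannot be told apart from the difference in array background. With the chromaffin marker mean as a covariate, the values were 0.10 for Adcyap1r1 and -0.05 for Npy2r. Neither was called, in a fit that called only 1 of the 19572 probe sets. The Adcyap1r1 call held when any one animal was left out. The calls were lost for Npy2r without animal 4, 11 or 12, for Oprm1 without 4, 5, 11 or 12, and for Galr1 without 4, 5, 6, 7, 10, 11 or 12 (adjusted p up to 0.143). After saline 1 of the 16 receptors was called higher in germ-free mice and none lower, near the 6.9% of all probe sets called. It was Npy4r (0.39 ± 0.10, adjusted p = 0.0425), and the call held only in the fit without animal 12 (up to 0.148 in the others). Its means of 4.62 in germ-free and 4.23 in colonized saline animals lay below the negative control medians of their arrays. This call therefore cannot be read as a change in receptor expression.

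**Figure D5:**
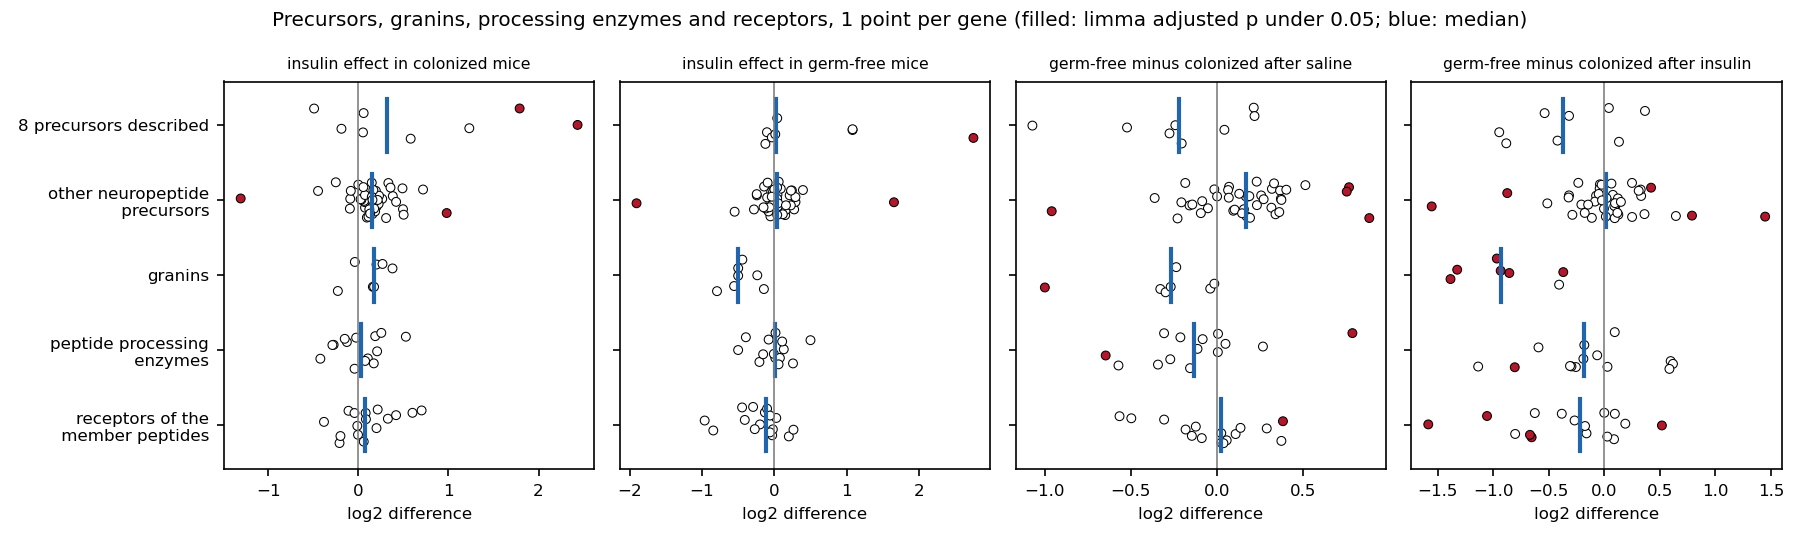
Log2 differences of the 8 precursor genes and of 4 related gene lists, 1 point per gene, with a panel for each insulin effect and for each comparison of germ-free minus colonized; filled points have a limma adjusted p under 0.05 and blue bars are list medians. Tac1 is the highest point in both insulin panels, and the granins lie left of 0 in the germ-free insulin panel and in both panels of germ-free minus colonized.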

How the data were processed

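The deposited table holds log2 values for 28846 probe sets, which the authors made from 12 arrays. The submitters' processing notes name RMA and limma without versions, and do not say whether all arrays were normalized in 1 run. The platform annotation gave 1 symbol to 19572 probe sets (19505 genes). Group means were fitted on all 12 arrays with limma 3.58.1 in R 4.3.3 (eBayes, 8 residual and 4.08 prior degrees of freedom), with no filter on dim values. Adjusted p values are Benjamini-Hochberg over the 19572 probe sets within each of 6 contrasts, and errors beside differences are standard errors of that fit. The procedure was tested on simulated data. The number of arrays limits the precision.

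The members, related lists, motifs and alternatives were chosen with earlier results of these data known. All 8 members are named. From each other list the called genes are named (the 4 largest where more were called), or up to 2 with the smallest p where none was called, and for each member the 3 genes with the highest Pearson r over the 12 arrays (for the dim members only the first is given). Genes on the lists but not on the array under that symbol were not analysed here. Alternatives were other sets of probe sets, 2 normalizations, a floor, fit options, marker covariates, thresholds and leaving out each array. Promoter sequences are RefSeq's; protein sequences were not used here.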

Additional observations from a re-analysis of the deposited data

How the results depend on the processing

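The mean insulin effect on Tac1 stayed called in all 12 fits that left out 1 animal, and so did that on Vgf. No paired analysis was possible because the animals are numbered 1 to 12 and no number occurs in more than 1 group. The cause of the changes listed here was not tested. Members called for insulin in colonized mice, 2 as reported, numbered 1 with the trend and robust options and 0 with all rows of the table, the compared groups alone, the chromaffin or the adipocyte covariate, an adjusted p under 0.01, or probe sets above the 95th percentile of the negative controls alone, a filter that removed Tac1, Vgf, Pdyn, Adcyap1 and Vip. In germ-free mice, with 1 as reported, they numbered 3 with array weights or the compared groups alone, 2 with the adipocyte covariate, and 0 at 0.01 or with that filter. With the chromaffin covariate the number stayed at 1, but the member was Gal and not Tac1. For the mean effect, with 2 as reported, they numbered 1 at 0.01, 1 with that filter, where the member was Gal, and 3 (Gal added) with array weights, with the chromaffin or the adipocyte covariate, or under 0.1. For germ-free minus colonized after saline, with 0 as reported, they numbered 2 with a floor at the negative control median and 1 with the chromaffin covariate, the adipocyte covariate or an adjusted p under 0.1. After insulin, with 0 as reported, they numbered 3 with the floor, 2 with array weights or under 0.1, and 1 with all rows, with that filter, or with a filter at the negative control mean that was added after the data were seen. Leaving out 1 animal gave 0 to 2 members in colonized mice, 0 to 2 in germ-free mice, 0 for the difference, 2 to 3 for the mean, 0 to 1 after saline and 0 to 2 after insulin.

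Over all probe sets, the calls over all alternatives ran from 0 to 74 for insulin in colonized mice (30 as reported, and 0 in the compared groups alone, with 1380 at an unadjusted p under 0.05), from 6 to 545 in germ-free mice (86), from 0 to 149 for the difference (7), from 20 to 252 for the mean (82), from 158 to 7863 after saline (1351) and from 1 to 7820 after insulin (1521). The largest counts between the colonization states came with the floor, which lies higher on germ-free arrays by construction.

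Directions turned mostly for values near 0 or under a covariate that itself differs between the groups. With the chromaffin covariate the insulin effect in germ-free mice was 0.60 for Npy and -1.01 for Penk. The difference of the effects was then 1.34 for Gal, 0.31 for Npy, -0.96 for Penk and 0.42 for Vgf, and the mean effect 0.0023 for Adcyap1 and 0.0251 for Vip. Germ-free minus colonized was then 0.16 for Gal, 0.0851 for Npy and 0.0858 for Vgf after saline. After insulin it was 1.50 for Gal, 0.40 for Npy, 0.50 for Vgf, 0.37 for Vip, 0.10 for Adcyap1r1, 0.12 for Pcsk1n and 0.57 for Scg5. With the adipocyte covariate Penk gave 0.22 for insulin in colonized and -0.42 in germ-free mice and -0.64 for the difference, Npy gave 0.0342 in germ-free mice, and Gal gave 0.64 for the difference and 0.55 after insulin. With array weights Adcyap1 (-0.0172) and Pdyn (-0.0038) turned in colonized mice, Vip (-0.0277) in germ-free mice, Pdyn (-0.0113) for the mean and Tac1 (-0.0528) after saline. With median centring Pdyn gave 0.00098 in germ-free mice and Adcyap1 0.0074 for the mean. A second quantile normalization gave -0.00797 for Tac1 after saline, and the floor gave -0.0069 for the difference of Tac1 and 0.0227 for the mean of Adcyap1.

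Leaving out 1 animal turned values that were not called. Insulin in colonized mice ran from -0.95 to 0.0502 for Penk. In germ-free mice it ran from -0.27 to 0.0303 for Npy, -0.0902 to 0.0485 for Pdyn, -0.0492 to 0.10 for Penk and -0.15 to 0.16 for Vip. The difference ran from -0.49 to 0.16 for Gal, -0.0082 to 0.99 for Penk and -0.29 to 0.75 for Tac1, and the mean from -0.0989 to 0.0208 for Adcyap1, -0.0194 to 0.0499 for Pdyn and -0.45 to 0.0461 for Penk. Germ-free minus colonized for Tac1 ran from -0.17 to 0.25 after saline and from -0.24 to 0.79 after insulin, and for Adcyap1 from -0.0497 to 0.0923 after insulin. Low signal over background limits what can be said of Pdyn, Adcyap1, Vip and, after saline, of Tac1 and of Vgf in germ-free mice.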
